A study of Homo sapiens with 19 samples.

Results

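The genes described are 8 genes of mitochondrial fatty acid oxidation and of the response to the receptor PPAR-alpha: CPT1A, CPT2, ACADVL, ACADM, HADHA, PDK4, ANGPTL4 and CREB3L3. They were chosen by name, with earlier results of these data known. Genes were matched by Ensembl identifier, and all 8 were found among the 32703 identifiers listed in every count matrix. They were measured by droplet single-cell RNA sequencing (10x Genomics 3′ version 3 chemistry) of human liver organoids, small tissue-like aggregates differentiated from W01, a wild-type human pluripotent stem cell line from WiCell. The 19 libraries form 9 groups. Untreated organoids from ultra-low attachment (ULA) plates were sampled at day 21 (n = 3) and at day 34 (n = 2). Organoids from an orbital shaker (OS) were all sampled at day 25, with n = 2 in each of 7 groups. Those groups are untreated organoids, organoids given TGFB1 (transforming growth factor beta 1) at 10 ng/ml, organoids given PA at 500 µM, organoids given OA at 500 µM, and a separate control for each of the 3 agents. PA and OA are written as in the labels, which give neither name in full nor what the controls received. Per the labels, treatment lasted 5 days after 20 days of culture. All groups derive from the same cell line, and the labels do not say that replicates are separate cultures, so the p-values measure the spread between these libraries, which may be technical.

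Fatty acids are burned in the mitochondrial matrix. CPT1A on the outer mitochondrial membrane joins long-chain acyl groups to carnitine, which is the controlled entry step, and CPT2 on the inner membrane returns them to coenzyme A. Acyl-CoA dehydrogenases (ACADVL for very long chains, ACADM for medium chains) and the trifunctional protein, whose alpha subunit is HADHA, then shorten the chain. PPAR-alpha is a nuclear receptor that binds fatty acids, pairs with RXR and switches on this programme in liver during fasting. PDK4 phosphorylates and inactivates pyruvate dehydrogenase, ANGPTL4 is a secreted inhibitor of lipoprotein lipase, and CREB3L3 is a membrane-bound transcription factor of liver and small intestine that acts on lipid genes; all 3 are commonly used as PPAR-alpha target genes.

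With a minimum of 500 genes per cell and a maximum of 20% mitochondrial counts, a library held 3089 to 12427 cells and 6880807 to 91184055 UMIs (unique molecular identifiers, counts of captured transcripts), with a median of 1310 to 14304 UMIs per cell. Any pair of libraries shared between 1 and 32 cell barcodes. Levels are given as CPM, the usual scaling of a gene's counts by the UMIs summed over its library, and in such sums fewer cells of a type and less RNA per cell cannot be told apart. Day 34 ULA replicate 1 stood apart: 23 of its 4326 cells had EPCAM UMIs without COL1A2 or COL3A1 UMIs, against 747 of 12427 in replicate 2. OA went with a different mixture of cells. Cells positive for EPCAM, an epithelial surface protein, and free of COL1A2 and COL3A1, collagens of mesenchymal cells, made up 88.4% of cells in both OA libraries and 23.1% to 32.4% in the OA control. All 8 mesenchymal markers were lower with OA (their summed level was 4025 to 6316 CPM in the control libraries and 287 to 339 CPM with OA). Of 8 hepatocyte markers 6 were higher (8547 to 11366 CPM against 15194 to 17363 CPM), and of 6 gut epithelium markers 5 were higher (264 to 496 CPM against 3999 to 5128 CPM). All 4 cycling markers were lower. Of 4 macrophage or leukocyte markers 2 could be tested and 1 was higher (10.7 to 15.8 CPM in sum against 71.0 to 82.7 CPM, and 15.0 to 20.7 CPM against 73.4 to 87.0 CPM in EPCAM-positive cells), while PTPRC and CD14, which define these cells, were at 0 with OA. With PA, 0 of these markers passed the test. The part of these shifts in the results below was not tested, beyond the values given within EPCAM-positive cells.

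The genes lie on 6 chromosomes of GRCh38 (GENCODE release 44). CPT1A (ENSG00000110090) spans chromosome 11, 68754620 to 68844410, minus strand, and CPT2 (ENSG00000157184) spans chromosome 1, 53196792 to 53214197, plus strand. ACADVL (ENSG00000072778) lies on chromosome 17, 7217125 to 7225266, plus strand, ACADM (ENSG00000117054) on chromosome 1, 75724431 to 75787575, plus strand, and HADHA (ENSG00000084754) on chromosome 2, 26190635 to 26244672, minus strand. PDK4 (ENSG00000004799) lies on chromosome 7, 95583499 to 95596516, minus strand. ANGPTL4 (ENSG00000167772) and CREB3L3 (ENSG00000060566) are both on the plus strand of chromosome 19, at 8363289 to 8374370 and 4153631 to 4173054. Annotated neighbours overlap 5 of them: RABGGTB overlaps ACADM on the same strand, and CZIB, DLG4, HADHB and PDK4-AS1 overlap CPT2, ACADVL, HADHA and PDK4 on the other strand. Whether the authors' counting used strand is not given in the sources used here, so reads in these overlaps could have been counted for either gene.

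CREB3L3 showed the largest change of the 8 genes with OA. Its promoter is shown because it alone among their promoter windows matched a loosened form of a site that PPAR and RXR bind. These receptors bind a direct repeat of a half-site with a spacer base between the copies (a DR1 element). The 250 bases before the CREB3L3 start site (RefSeq, GRCh38.p14, plus strand, chr19:4153381-4153630) are given 5′ to 3′, with the match to AGGNCA, any spacer base and AGGNCA again in capitals:
CREB3L3: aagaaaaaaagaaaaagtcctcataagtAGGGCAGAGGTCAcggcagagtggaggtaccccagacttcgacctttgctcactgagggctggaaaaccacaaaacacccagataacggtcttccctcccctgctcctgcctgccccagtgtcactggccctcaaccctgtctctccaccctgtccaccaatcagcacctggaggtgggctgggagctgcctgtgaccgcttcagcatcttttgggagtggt
The match runs from position -222 to -210 relative to the start site. Against a repeat of the half-site AGGTCA it had 11 letters matched and 1 mismatch. As few mismatches were found in 0.336% of all windows. Windows of 250 bases before to 50 after the start were searched on both strands, and 109 of 35116 RefSeq windows (0.31%) held these letters. The windows of the other 7 genes, with a second window for ACADVL, held 0 matches. A match of letters is a description and does not show binding, and a window without a match says only that the letters are not in that window.

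CPT1A, the entry enzyme, set the OA libraries apart from every other library. Its level was 77.2 and 66.1 CPM with OA, against 8.61 and 7.74 CPM in the OA control and 14.5 and 17.7 CPM in untreated shaker organoids. It was 23.3 and 20.3 CPM with PA and 14.4 and 16.2 CPM in the PA control, 10.9 and 10.9 CPM with TGFB1 and 12.1 and 9.01 CPM in its control. ULA organoids had 4.05, 3.16 and 4.34 CPM at day 21 and 1.90 and 6.96 CPM at day 34. Ordered by mean, OA (71.7 ± 7.8 CPM, SD, n = 2) stood above PA (21.8 ± 2.1, SD, n = 2), untreated (16.1 ± 2.2), PA control (15.3 ± 1.3), TGFB1 (10.9), TGFB1 control (10.5 ± 2.2), OA control (8.18 ± 0.62) and the ULA groups (4.43 ± 3.58 at day 34 and 3.85 ± 0.62 at day 21). Libraries overlapped between neighbours in this order at 3 of 8 steps: untreated and PA control, TGFB1 and its control, and the 2 ULA ages.

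CREB3L3, the transcription factor, reached 192 and 162 CPM with OA, while its highest value in the 17 other libraries was 25.3 CPM. The OA control had 10.5 and 9.39 CPM and untreated shaker organoids 12.5 and 25.3 CPM. PA libraries had 9.91 and 10.4 CPM and the PA control 9.01 and 6.05 CPM. The gene was lowest in TGFB1 organoids, at 1.04 and 1.58 CPM against 4.11 and 6.02 CPM in their control, and in ULA organoids at day 34, at 0.0771 and 1.62 CPM against 11.5, 7.07 and 10.5 CPM at day 21. The day 34 values rest on 6 and 148 UMIs. Groups overlapped with the next in order at 4 of 8 steps.

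PDK4, the pyruvate dehydrogenase kinase, did not put OA at the top: the TGFB1 control had 26.2 and 17.8 CPM and OA 21.8 and 17.2 CPM, and these ranges overlapped. PA libraries followed with 11.5 and 18.7 CPM, above 6.98 and 8.54 CPM in the PA control. TGFB1 gave 9.54 and 10.9 CPM, untreated shaker organoids 4.88 and 4.35 CPM and the OA control 3.21 and 3.95 CPM. The 3 shaker controls thus ran from 3.21 to 26.2 CPM without overlapping each other. ULA libraries were lowest, at 1.86, 1.40 and 1.69 CPM at day 21 and 0.899 and 2.54 CPM at day 34.

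ANGPTL4, the lipase inhibitor, had another order, with TGFB1 (58.9 and 42.4 CPM) and PA (31.0 and 42.7 CPM) at the top and OA (3.18 and 6.37 CPM) at the bottom. Its controls had 6.64 and 8.28 CPM for TGFB1, 10.8 and 21.6 CPM for PA and 5.75 and 15.9 CPM for OA, and untreated shaker organoids 12.3 and 2.56 CPM. ULA organoids had 11.0, 16.2 and 7.67 CPM at day 21 and 41.4 and 9.71 CPM at day 34. Replicates differed widely, and every group overlapped with its neighbour in the order of means. 

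The 4 enzymes of the matrix and inner membrane varied less. CPT2 ran from 7.55 to 27.9 CPM over all libraries, with a median of 13.9 CPM, and was highest with OA (27.9 and 25.7 CPM) and lowest with TGFB1 (8.49 and 7.55 CPM). ACADVL ran from 78.2 CPM in a day 34 ULA library to 262 CPM with OA. HADHA ran from 97.6 CPM in a TGFB1 control library to 359 CPM with OA. ACADM was lowest in the PA experiment (28.8 to 37.4 CPM in its 4 libraries), and its 2 OA values, 73.2 and 63.5 CPM, overlapped those of day 21 ULA organoids (70.6, 68.6 and 64.2 CPM). In the plot of levels by library, the OA points are separated from all others for CPT1A, CPT2, ACADVL, HADHA and CREB3L3, by the widest margin for CPT1A and CREB3L3. How many of all genes separate OA in this way was not counted.

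**Figure D1:**
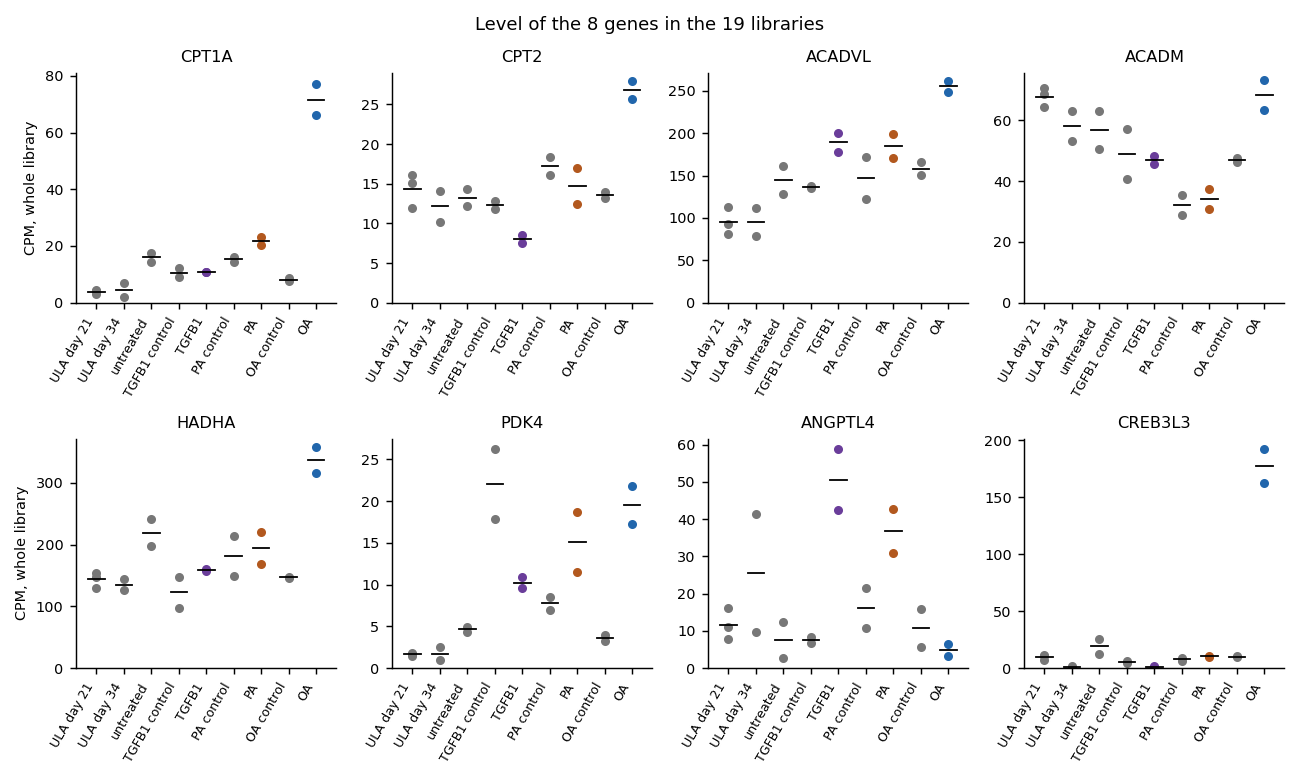
Level of each of the 8 genes (CPM of UMIs summed over a whole library, linear axis from 0) in the 19 libraries by group. Points are libraries and bars are group means; colours mark TGFB1, PA and OA, and grey marks controls and untreated organoids. OA libraries reach 66.1 and 77.2 CPM for CPT1A and 162 and 192 CPM for CREB3L3, and are lowest on average for ANGPTL4.

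OA raised 7 of the 8 genes against the OA control in whole libraries, and ANGPTL4 was the exception. Called higher here means an adjusted p under 0.05 (edgeR quasi-likelihood test over 19366 genes, Benjamini-Hochberg); the test called 43.3% of all genes in either direction and 21.7% higher. On the log2 scale CREB3L3 rose by 4.48 (SE 0.398, edgeR adjusted p 4.5e-06) and CPT1A by 3.46 (SE 0.213, edgeR adjusted p 5.1e-07). PDK4 rose by 2.79 (SE 0.258, edgeR adjusted p 5.8e-06). For these 3 genes every OA library exceeded both control libraries.

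The enzymes further along the pathway rose less. HADHA, from 147 and 147 CPM to 359 and 316 CPM, rose by 1.54 (SE 0.262, edgeR adjusted p 4.7e-04). CPT2 rose by 1.31 (SE 0.213, edgeR adjusted p 3.2e-04), from 13.9 and 13.2 CPM in the control. ACADVL had 150 and 166 CPM in the control and 262 and 249 CPM with OA, a rise of 1.03 (SE 0.197, edgeR adjusted p 0.0011). ACADM, with 47.6 and 46.2 CPM in the control, rose by 0.88 (SE 0.224, edgeR adjusted p 0.0067), and its call was lost without OA control replicate 2 (edgeR adjusted p 0.0737) or OA replicate 1 (edgeR adjusted p 0.0645). OA libraries stood above the control libraries in all 7 genes. The share of all genes with libraries apart was not counted, here or in the comparisons below, so separation is a description only. For ANGPTL4 the estimate was -0.81 (SE 0.57, edgeR adjusted p 0.272), with overlapping libraries. Without a filter on low counts it was called lower (-0.82, edgeR adjusted p 0.0054). That fit keeps every gene with any UMI, and the estimate hardly moved, so the call rests on another estimate of the spread. Whether that spread suits the 8 genes was not tested, here or where this fit is given below. The median over the 8 genes was 1.43, beside -0.08 over all genes tested.

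These fold changes depend in size on the scaling. TMM, the scaling used, sets most genes near no change. With library totals alone, as in CPM, the median of all genes with OA shifted by -0.34, calls split into 2628 higher and 5952 lower in place of 4197 and 4181, and the same shift applied to the 8 genes. CREB3L3 then rose by 4.15, CPT1A by 3.13, PDK4 by 2.45, HADHA by 1.20, CPT2 by 0.98 and ACADVL by 0.69, all called by edgeR. ACADM had 0.54 (edgeR adjusted p 0.0569) and ANGPTL4 -1.18, neither called.

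PA raised none of the 8 genes past the threshold in whole libraries, and the same test called 0.0465% of all genes (9 of 19366, all higher). PA control replicate 1 had the fewest UMIs of all libraries, 6880807 against 45303089 in replicate 2. With 2 libraries in each group, a gene without a call is not shown to be unchanged. Of all genes 540 had an unadjusted p under 0.05, 2 of them among the 8, and DESeq2 called 51 genes. PDK4 had the smallest p, at 1.01 on the log2 scale (SE 0.253, unadjusted p 0.0015, edgeR adjusted p 0.484), and both PA libraries exceeded both control libraries. CPT1A had 0.57 (SE 0.201, unadjusted p 0.0147, edgeR adjusted p 1) and ANGPTL4 1.22 (SE 0.571, unadjusted p 0.0516, edgeR adjusted p 1), again with no overlap between the groups. CREB3L3 had 0.54 (SE 0.377), ACADVL 0.39 (SE 0.196), HADHA 0.16 (SE 0.257), ACADM 0.14 (SE 0.226) and CPT2 -0.17 (SE 0.217), all with edgeR adjusted p 1. Of these, CREB3L3 alone kept its libraries apart, and how often this happens over all genes was not counted. Without a filter on low counts edgeR called PDK4 (adjusted p 0.035) and ANGPTL4 (adjusted p 4.5e-04), and 162 genes in all. The estimates hardly moved (1.02 for PDK4 and 1.23 for ANGPTL4), so these calls too rest on another estimate of the spread.

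**Figure D2:**
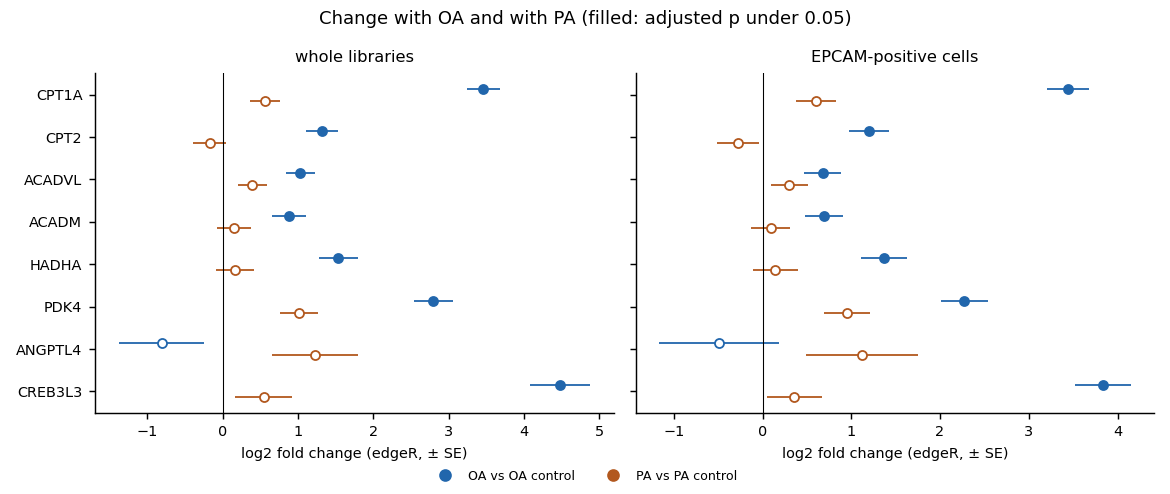
Log2 fold change (x axis, edgeR estimate with bars of 1 SE) of the 8 genes with OA and with PA, each against its own control, in whole libraries (left) and in EPCAM-positive cells (right). Filled points have an adjusted p under 0.05: 7 genes with OA and 0 with PA in each panel, and ANGPTL4 lies below 0 with OA and above 0 with PA without passing the test in either.

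The OA and PA effects were then compared directly, as the difference between the changes, at the same dose and duration. The matrices of the 2 experiments were made with different software versions and gene lists, so each effect is taken against the control of its own experiment. The difference passed the test for 5 of the 8 genes, all with the larger rise for OA, where edgeR called 20.5% of all genes in either direction, 10.2% as higher and 10.3% as lower. It was 3.94 for CREB3L3 (SE 0.526, edgeR adjusted p 3.9e-04) and 2.90 for CPT1A (SE 0.285, edgeR adjusted p 6.8e-05). PDK4 differed by 1.78 (SE 0.352, edgeR adjusted p 0.0038) and CPT2 by 1.49 (SE 0.303, edgeR adjusted p 0.0045). HADHA differed by 1.37 (SE 0.365, edgeR adjusted p 0.0182), a call lost without PA control replicate 2, PA replicate 2, OA control replicate 2 or OA replicate 1 (edgeR adjusted p 0.0668 to 0.0973). ACADM (0.74, SE 0.317, edgeR adjusted p 0.119), ACADVL (0.64, SE 0.277, edgeR adjusted p 0.12) and ANGPTL4 (-2.04, SE 0.807, edgeR adjusted p 0.0915) did not pass. ANGPTL4 did pass without OA control replicate 1 (edgeR adjusted p 0.0487) and with only the groups of the comparison in the fit (edgeR adjusted p 0.0434), and without a filter on low counts it passed at -2.05 (edgeR adjusted p 3.2e-07). ACADVL passed by DESeq2 (adjusted p 0.0433).

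Within EPCAM-positive cells the OA pattern had the same shape. These cells had at least 1 EPCAM UMI and 0 UMIs of COL1A2 and COL3A1, and numbered 715 to 2849 in the OA and OA control libraries. CPT1A rose from 8.41 and 7.23 CPM to 78.6 and 67.5 CPM, by 3.44 (SE 0.238, edgeR adjusted p 1.6e-06). CREB3L3 rose from 15.6 and 14.6 CPM to 201 and 167 CPM, by 3.83 (SE 0.315, edgeR adjusted p 3.9e-06). PDK4 rose from 3.95 and 6.10 CPM to 22.6 and 17.9 CPM, by 2.27 (SE 0.265, edgeR adjusted p 4.4e-05). In all 3 genes the OA and control libraries lay far apart.

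HADHA (1.37, SE 0.258), CPT2 (1.20, SE 0.226), ACADM (0.70, SE 0.213) and ACADVL (0.68, SE 0.21) rose as well in these cells, with edgeR adjusted p 0.0012, 0.0012, 0.021 and 0.0218, and ANGPTL4 did not (-0.49, SE 0.674, edgeR adjusted p 0.606). That is 7 of 8 genes called higher, where edgeR called 35.9% of 17527 genes in either direction and 19.1% higher. The calls of ACADM and ACADVL were the weak ones. ACADVL lost its call without any of the 4 OA or OA control libraries (edgeR adjusted p 0.0632 to 0.131), ACADM without OA control replicate 1, OA control replicate 2 or OA replicate 1 (edgeR adjusted p 0.0551, 0.159 and 0.169), and both lost it with library totals in place of TMM (edgeR adjusted p 0.0957 for ACADM and 0.156 for ACADVL). The library totals moved the median of all genes by -0.23 and split the calls into 2269 higher and 4087 lower, in place of 3347 and 2953. Gut epithelium markers summed to 367 to 618 CPM in EPCAM-positive control cells and 4077 to 5367 CPM with OA, and hepatocyte markers to 15872 to 16617 CPM and 15546 to 18033 CPM. Mesenchymal markers summed to 911 to 1062 CPM in these control cells and 181 to 213 CPM with OA. Cycling markers had 186 to 194 CPM and 78.1 to 91.3 CPM, and bile duct markers 485 to 1020 CPM and 336 to 457 CPM. The part of these marker shifts in the change of the 8 genes was not tested.

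PA moved 0 of the 8 genes past the threshold in EPCAM-positive cells, where edgeR called 0.103% of genes. The log2 fold changes were 1.12 for ANGPTL4 (SE 0.633), 0.95 for PDK4 (SE 0.262), 0.61 for CPT1A (SE 0.225) and 0.36 for CREB3L3 (SE 0.312), with edgeR adjusted p 1, 0.682, 1 and 1. The other 4 genes lay between -0.28 and 0.30. The difference between the OA and PA effects again passed for 5 genes, where edgeR called 15% of genes, 8.62% as higher and 6.4% as lower: CREB3L3 (3.48, edgeR adjusted p 4.7e-04), CPT1A (2.84, edgeR adjusted p 2.5e-04), CPT2 (1.48, edgeR adjusted p 0.009), PDK4 (1.32, edgeR adjusted p 0.0281) and HADHA (1.23, edgeR adjusted p 0.0353). Without a filter on low counts ANGPTL4 was called with PA (1.14, edgeR adjusted p 0.0054) and for the difference (-1.56, edgeR adjusted p 0.0011). CREB3L3 and CPT1A kept their calls for the difference whichever of the 8 libraries was left out. CPT2 lost its call without OA control replicate 2 (edgeR adjusted p 0.0517). PDK4 lost it without PA control replicate 1 or 2, PA replicate 1, OA control replicate 1 or OA replicate 1 (edgeR adjusted p 0.0662 to 0.13). HADHA lost it without PA control replicate 2, PA replicate 2, or any of the OA and OA control libraries (edgeR adjusted p 0.0571 to 0.147). With library totals in place of TMM both lost it too (edgeR adjusted p 0.0851 for PDK4 and 0.0621 for HADHA).

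COL-positive cells had at least 1 UMI of COL1A2 or COL3A1 and 0 EPCAM UMIs. OA left 60 and 38 of them, under the minimum of 50 in replicate 2, so OA was not tested there and values are given with exact 95% Poisson intervals, which cover counting error only. CPT1A had 13 UMIs in each OA library, 36.6 CPM (19.5 to 62.6) and 55.5 CPM (29.6 to 94.9), above 7.35 CPM (5.80 to 9.19) and 5.11 CPM (4.01 to 6.41) in the OA control. ANGPTL4 had 50.7 CPM (30.0 to 80.1) and 470 CPM (386 to 566) with OA against 17.9 and 36.8 CPM in the control, a gap between the OA replicates far wider than their intervals. CREB3L3 had 3 and 0 UMIs in the COL-positive OA cells, 8.44 CPM (1.74 to 24.7) and 0 CPM (up to 15.8). Free RNA from other cells can enter any droplet, and EPCAM-positive cells of OA replicate 1 held 3940 CPT1A UMIs. The markers of the class moved as well: in COL-positive cells epithelial markers summed to 943 to 994 CPM in the OA control and 3669 to 4113 CPM with OA, bile duct markers to 51.8 to 72.8 CPM and 483 to 1149 CPM, and mesenchymal markers to 14643 to 16334 CPM and 5771 to 6094 CPM. The part of free RNA and of these marker shifts in the values of COL-positive cells was not tested.

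PA left 402 and 536 COL-positive cells and its control 229 and 577. ANGPTL4 had 26.7 and 65.5 CPM in the control and 127 and 206 CPM with PA, a difference of 1.70 (log2, SE 0.421, unadjusted p 0.001, edgeR adjusted p 0.397) with libraries apart; DESeq2 gave an adjusted p of 0.0499, and edgeR without a filter on low counts 6.4e-05. CPT1A had 29.1 and 29.6 CPM in the control and 51.5 and 35.0 CPM with PA, a difference of 0.53 (log2, SE 0.299, edgeR adjusted p 1). The first of those control values rests on 12 UMIs (95% Poisson interval 15.1 to 50.9 CPM). By edgeR 0 of 14189 genes were called in this class (0%), while 581 had an unadjusted p under 0.05 and DESeq2 called 15.

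**Figure D3:**
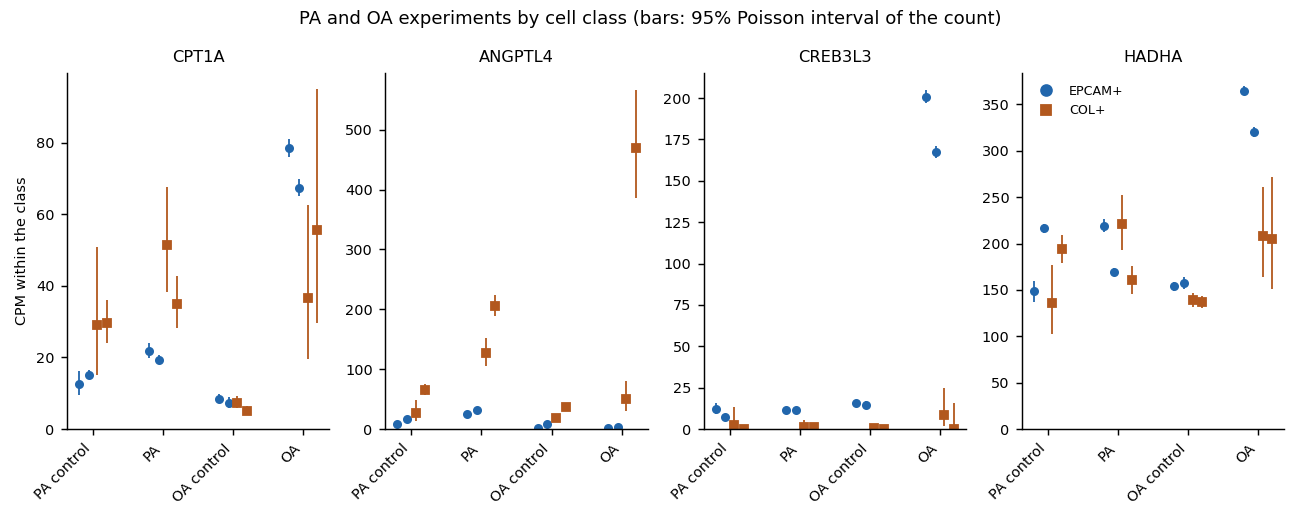
CPT1A, ANGPTL4, CREB3L3 and HADHA in EPCAM-positive (circles) and COL-positive (squares) cells of the PA and OA experiments, in CPM within the class (linear axes from 0). Each point is a library and bars are exact 95% Poisson intervals of the UMI count. With OA, CREB3L3 stands at 201 and 167 CPM in EPCAM-positive cells and at 8.44 and 0 CPM in COL-positive cells, which number 60 and 38.

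The classes were also compared with each other in the 12 untreated and control libraries that held at least 50 cells of each, with the library as a block; day 34 ULA replicate 1 was left out for its 23 EPCAM-positive cells. The markers matched the class names: all 6 epithelial and all 8 mesenchymal markers differed in the direction of the class (COL1A2, COL3A1 and EPCAM define it). Of the 8 genes 5 were higher in EPCAM-positive cells and ANGPTL4 was lower, where edgeR called 62.5% of 14424 genes in either direction, 33.7% higher and 28.8% lower. A share of cells with UMIs of both kinds, 1.93% to 59.7% of a library's cells, belonged to neither class. Cells without a UMI of either kind were outside both as well, and made up 44.7% of TGFB1 control replicate 1 and 33.9% of PA control replicate 1, both of low depth, and 0.301% to 24.1% of the other libraries.

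CREB3L3 differed most between the classes. It had 5.22 CPM at the lowest, 15.1 CPM at the median and 32.3 CPM at the highest there, and 0, 0.321 and 2.43 CPM in COL-positive cells, with a log2 difference of 5.72 (SE 0.418, edgeR adjusted p 3.8e-08) and a higher value in 12 of 12 libraries. PDK4 was higher in EPCAM-positive cells in 12 of 12 libraries too, by 2.05 (SE 0.231, edgeR adjusted p 2.3e-06), with medians of 6.80 and 1.56 CPM. ACADVL was higher by 1.26 (SE 0.112, edgeR adjusted p 2.1e-07), again in 12 of 12, with 119, 152 and 210 CPM (lowest, median and highest) against 39.9, 71.9 and 110 CPM. The ranges of the classes overlapped for PDK4 and did not overlap for CREB3L3 and ACADVL.

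ANGPTL4 was higher in COL-positive cells. Its lowest, median and highest levels were 8.95, 27.6 and 65.5 CPM there and 0.901, 6.90 and 17.0 CPM in EPCAM-positive cells, a log2 difference of -2.18 (SE 0.235, edgeR adjusted p 1.5e-06). It was lower in EPCAM-positive cells in all 12 libraries. CPT2 was higher in EPCAM-positive cells by 0.66 (SE 0.129, edgeR adjusted p 4.3e-04), in 11 of 12 libraries. HADHA differed by 0.22 (SE 0.0589, edgeR adjusted p 0.0043), in 10 of 12, a call lost without day 21 ULA replicate 2, day 34 ULA replicate 2 or untreated replicate 1 (edgeR adjusted p 0.0505, 0.0727 and 0.0895), with library totals in place of TMM (0.09, edgeR adjusted p 0.16), without doublets (0.14, edgeR adjusted p 0.062) and without the library as a block (0.24, edgeR adjusted p 0.286).

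CPT1A and ACADM did not differ between the classes past the threshold (0.03, SE 0.159, edgeR adjusted p 0.873, and 0.15, SE 0.0942, edgeR adjusted p 0.212), and each was higher in EPCAM-positive cells in 6 of 12 libraries. For CPT1A the sign of the estimate changed with library totals (-0.10). The libraries did not behave alike. In the PA control, CPT1A had 12.6 and 15.1 CPM in EPCAM-positive cells and 29.1 and 29.6 CPM in COL-positive cells, while untreated shaker organoids had 15.1 and 20.0 CPM and 13.4 and 12.0 CPM. Library totals moved the median of all genes by -0.13 in this comparison and left 3978 genes higher and 5332 lower, in place of 4867 and 4154.

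**Figure D4:**
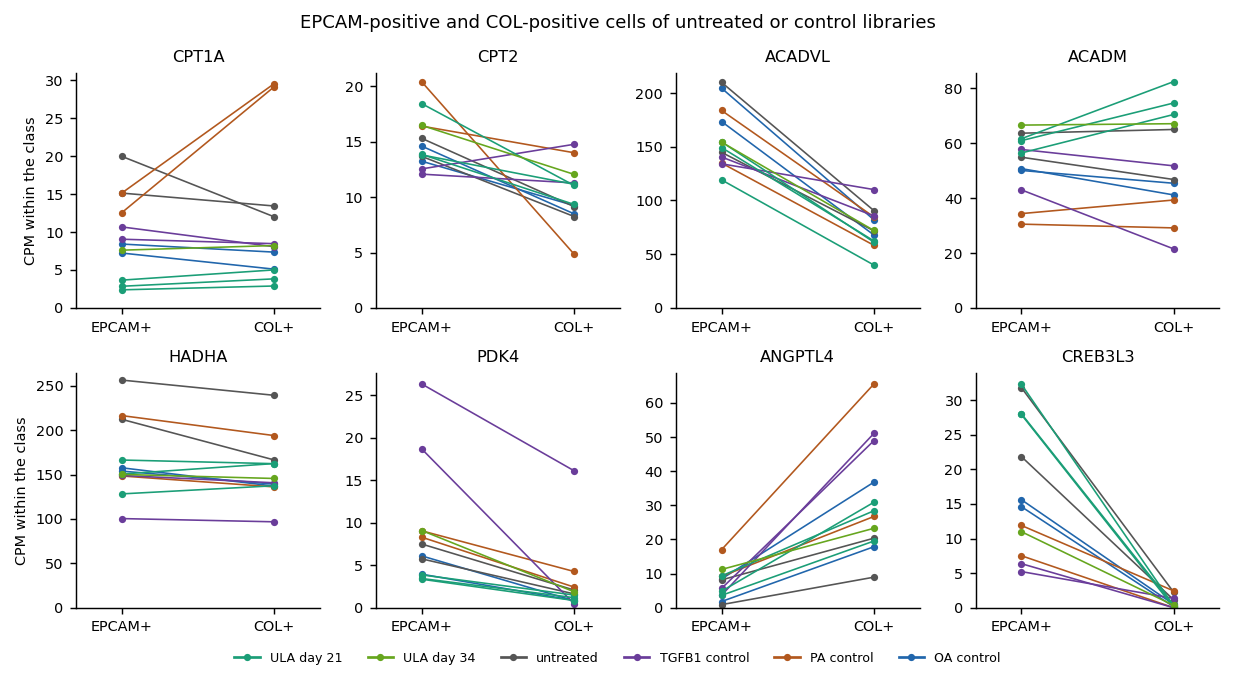
Level of the 8 genes in EPCAM-positive (EPCAM+) and COL-positive (COL+) cells of the 12 untreated or control libraries, in CPM within the class (linear axes from 0). A line joins the 2 classes of a library and colours mark the group. Lines fall from EPCAM+ to COL+ in 12 of 12 libraries for ACADVL, PDK4 and CREB3L3 and rise in 12 of 12 for ANGPTL4, and the 2 PA control lines for CPT1A rise where the untreated lines fall.

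The rest of the pathway was read from lists holding 89 other genes, of which 83 could be tested in whole libraries. These lists were also chosen with earlier results of these data known, so their counts are no independent test. With OA 39 were higher, 6 were lower and 38 were not called, with a median of 0.61 beside -0.08 over all genes. Over all genes 21.7% were called higher and 21.6% lower, and the list counts are read beside these shares. The counts of single lists that follow include the 8 genes where they are list members. Of the 7 genes of the carnitine shuttle 5 were higher, CPT1A and CPT2 among them, and also SLC25A20, the carnitine carrier of the inner membrane (1.51, SE 0.337, edgeR adjusted p 0.003). CPT1C, a brain-type relative of CPT1A, was lower (-3.92, SE 0.391, edgeR adjusted p 9.8e-06), from 4.78 ± 1.85 to 0.244 ± 0.047 CPM (SD, n = 2). Of 18 mitochondrial beta-oxidation enzymes 10 were higher, ACADVL, ACADM and HADHA among them, and 0 lower. ETFDH, which passes the electrons of these dehydrogenases to the respiratory chain, rose from 15.2 ± 0.2 to 78.3 ± 12.6 CPM (2.70, SE 0.228, edgeR adjusted p 3.4e-06). ETFA, a subunit of the flavoprotein that feeds it, rose by 1.67 (SE 0.299, edgeR adjusted p 6.6e-04). HADHB, the beta subunit of the trifunctional protein, which was picked after its values were seen, had 75.7 ± 3.0 CPM in the control and 115 ± 11 CPM with OA (0.94, edgeR adjusted p 0.0043). HADHA and HADHB start 307 bases apart on opposite strands of chromosome 2 in RefSeq.

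Transcripts of genes for oxidation outside mitochondria were counted as well. Of 11 tested peroxisomal genes 8 were higher and 0 lower, and EHHADH, the peroxisomal bifunctional enzyme, rose by 1.77 (SE 0.296, edgeR adjusted p 4.0e-04). In EPCAM-positive cells 5 of the 11 were higher and 6 were not called, where 19.1% of all genes were called higher. The list median was 0.67 there and 1.10 in whole libraries. Of 4 ketone body genes 1 was higher and 3 were not called, a count near the share over all genes.

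Of 19 tested PPAR-alpha target genes, PDK4, ANGPTL4 and CREB3L3 included, 12 were higher, 2 were lower and 5 were not called, with a median of 2.70. CD36, a fatty acid transporter, rose from 0.336 ± 0.196 to 14.8 ± 0.8 CPM (5.81, SE 0.496, edgeR adjusted p 3.6e-06). APOA5, a regulator of plasma triglycerides, rose by 4.97 (SE 1.05, edgeR adjusted p 0.0036) at levels up to 0.536 CPM. HILPDA, a lipid droplet protein also induced by low oxygen, fell from 32.0 ± 7.1 to 7.59 ± 1.22 CPM (-1.73, SE 0.362, edgeR adjusted p 0.0019), and UCP3, an uncoupling protein found mainly in muscle, fell at levels below 0.2 CPM.

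Of 19 tested receptors and regulators 6 were higher, 2 were lower and 11 were not called, with a median of 0.38. PPARA, the gene of the receptor itself, rose from 11.1 ± 1.6 to 24.1 ± 1.1 CPM (1.44, SE 0.307, edgeR adjusted p 0.0022), and the coactivator PPARGC1B by 1.89 (SE 0.464, edgeR adjusted p 0.0055). RXRB, a partner receptor, and SIRT3, a mitochondrial deacetylase, were lower (-0.85 and -0.83, edgeR adjusted p 0.0081 and 0.0042). Of the enzymes acting on pyruvate dehydrogenase, PDK4 and the phosphatase PDP1 (1.41, SE 0.226, edgeR adjusted p 2.9e-04) were higher and 4 of 6 genes were not called. Among relatives of CREB3L3, CREB3 was higher (1.03, edgeR adjusted p 0.0183) and CREB3L4 lower (-0.96, edgeR adjusted p 0.0023). The lipase LIPG, from the list of ANGPTL4 partners, was higher (0.99, edgeR adjusted p 0.0067). In EPCAM-positive cells 3 genes of that list were tested, LIPG among them, and 0 were called.

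With PA 0 of the 83 genes were called, where 0.0465% of all genes were, and their median was 0.08 beside 0.02 over all genes. In EPCAM-positive cells OA gave 34 higher and 6 lower of 81 tested, with a median of 0.61 beside -0.07, where 19.1% of all genes were called higher and 16.8% lower. ETFDH (2.50), CD36 (5.55) and PPARA (1.18) were called higher there, and CPT1C (-2.02), HILPDA (-1.10), SIRT3 (-0.84) and RXRB (-0.64) lower. In the comparison of the classes, 43 of 74 tested list genes were higher in EPCAM-positive cells and 17 lower, with a median of 0.55 beside 0.02, and 9 of 11 peroxisomal genes were higher. Of 14 tested PPAR-alpha target genes 8 were higher and 6 lower, where 33.7% of all genes were called higher and 28.8% lower.

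**Figure D5:**
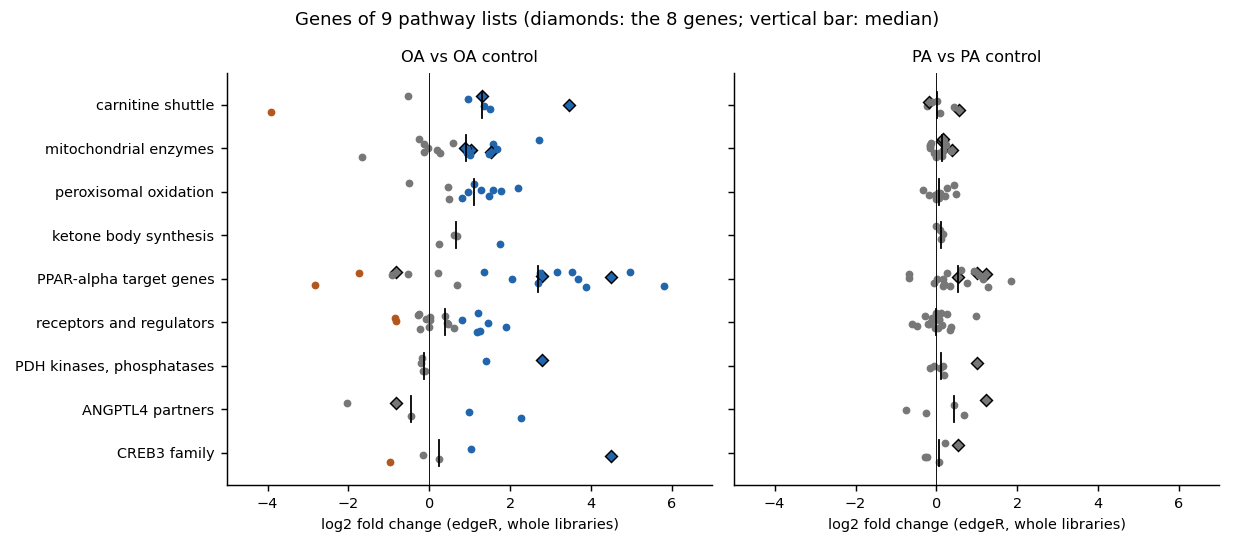
Log2 fold change (x axis, edgeR, whole libraries) of every tested gene of the 9 pathway lists with OA (left) and PA (right). Blue points were called higher, orange points lower and grey points were not called; diamonds are the 8 genes described, and vertical bars are list medians. With OA the PPAR-alpha target list has a median of 2.70 with CD36 highest, and with PA all points are grey.

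TGFB1 changed 4 of the 8 genes in whole libraries, in mixed directions, where edgeR called 22.2% of all genes. ANGPTL4 rose by 2.93 (SE 0.601, edgeR adjusted p 0.0041) and kept its call whichever of the 4 libraries was left out. CREB3L3 fell by 1.81 (SE 0.402, edgeR adjusted p 0.0065), PDK4 fell by 0.89 (SE 0.243, edgeR adjusted p 0.0196) and ACADVL rose by 0.67 (SE 0.196, edgeR adjusted p 0.0273). The last 3 calls were unstable. CREB3L3 lost its call without TGFB1 control replicate 2 or TGFB1 replicate 1 (edgeR adjusted p 0.0591 and 0.0864), and PDK4 and ACADVL lost theirs without TGFB1 control replicate 1 or either TGFB1 replicate (edgeR adjusted p 0.0743 to 0.206). ACADVL also lost its call with only the compared groups in the fit (edgeR adjusted p 0.085). HADHA (0.55), CPT1A (0.27), ACADM (0.11) and CPT2 (-0.42) were not called with all libraries, and HADHA was called without TGFB1 control replicate 2 (1.01, edgeR adjusted p 0.0111). With library totals in place of TMM the median of all genes moved by -0.19, calls split into 1415 higher and 3065 lower in place of 2104 and 2191, and ACADVL was not called (0.47, edgeR adjusted p 0.124).

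Among EPCAM-positive cells the ANGPTL4 values were 3.67 and 5.65 CPM in the TGFB1 control and 56.6 and 32.1 CPM with TGFB1. In COL-positive cells they were 51.1 and 48.9 CPM and 109 and 106 CPM, so TGFB1 libraries were above the controls in both classes; these values were not tested. Mesenchymal markers within EPCAM-positive cells summed to 553 to 1162 CPM in the control and 5162 to 5953 CPM with TGFB1. Of the other pathway genes 5 were higher and 13 lower with TGFB1, with a median of -0.22 beside -0.05. Over all genes 10.9% were called higher and 11.3% lower, so the number of list genes called was near the background. Of 8 mesenchymal markers 5 were higher with TGFB1 (1223 to 1958 CPM in control libraries and 6469 to 6942 CPM with TGFB1 in sum), and of 6 gut epithelium markers 2 were lower (186 to 215 CPM against 69.7 to 84.2 CPM in sum). Of 8 hepatocyte markers 5 were lower and 1 was higher (2587 to 3913 CPM against 4512 to 5357 CPM in sum), and all 4 cycling markers were lower. The part of these shifts in the values of ANGPTL4, CREB3L3, PDK4 and ACADVL was not tested.

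Between the OA control and the untreated shaker libraries edgeR called 0 of the 8 genes and 0 of the 83 list genes. It called 0.573% of all genes, 0.0826% higher and 0.491% lower (111 genes, with 2822 at an unadjusted p under 0.05, and 701 by DESeq2). CPT1A was the closest, with a log2 difference of -0.83 (SE 0.198, edgeR adjusted p 0.08) and lower values in both control libraries. It was called by DESeq2 (adjusted p 0.0125) and by edgeR with library totals (adjusted p 0.0384), which moved the median of all genes by -0.14. Both OA control libraries were also below both untreated libraries for CREB3L3 (-0.79, SE 0.352), HADHA (-0.42, SE 0.257), PDK4 (-0.23, SE 0.251) and ACADM (-0.12, SE 0.222). Libraries overlapped for ANGPTL4 (0.67), ACADVL (0.28) and CPT2 (0.18). With 2 libraries in each group, genes without a call are not shown to be equal. This comparison shares the OA control libraries with the OA comparison.

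Between day 21 and day 34 in ULA plates, CREB3L3 was the only 1 of the 8 genes called, lower at day 34 at -3.61 (log2, SE 0.948, edgeR adjusted p 0.0429), where edgeR called 15.6% of 22257 genes, 8.43% higher and 7.18% lower. The call was lost without any of the 3 day 21 libraries (edgeR adjusted p 0.101 to 0.145) and with the stricter cell filter (edgeR adjusted p 0.064). Hepatocyte and gut epithelium markers were lower at day 34 as well (5 of 8 and 6 of 6), and their part in this value was not tested. The day 34 libraries differed from each other in several genes: ANGPTL4 had 41.4 and 9.71 CPM, CPT1A 1.90 and 6.96 CPM and PDK4 0.899 and 2.54 CPM. Without day 34 replicate 1, which stood apart, CREB3L3 had -2.70 and ANGPTL4 had -0.38. Without day 34 replicate 2, CREB3L3 had -7.09 (edgeR adjusted p 6.3e-07), ANGPTL4 1.69 (edgeR adjusted p 7.5e-04), CPT1A -1.17 (edgeR adjusted p 0.0128) and PDK4 -1.02 (edgeR adjusted p 0.0413). These fits have 1 day 34 library, which is assumed to vary like the day 21 libraries, so their p-values do not show how stable a call is. Without a filter on low counts ANGPTL4 was called as well (0.99, edgeR adjusted p 0.0383). Library totals moved the median of all genes by 0.13 here and split the calls into 2596 higher and 1303 lower, in place of 1876 and 1599.

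Over the 19 libraries, likeness between genes was measured as Pearson's r of log2(CPM + 1) among 8951 genes with a mean of at least 10 CPM. It is a description without a test, since libraries share groups and experiments. Genes most like CPT1A included CCNYL1 (r = 0.98, n = 19 libraries) and DENND10 (0.95). CREB3L3 was most like CIDEC, a lipid droplet protein (0.98), KRT20, a keratin of gut epithelium (0.96), and GCNT3 (0.96). PDK4 was most like ENPP4 (0.94) and ANGPTL4 most like the antisense gene FAM131B-AS2 (0.85). Among the 8 genes themselves the highest value joined CPT1A and ACADVL (0.86, n = 19 libraries), and the lowest joined ANGPTL4 and CREB3L3 (-0.65).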

How the data were processed

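The authors deposited matrices of UMI counts per gene and cell, unnormalised, for 19 libraries. Per the submitters' processing notes they were made with bcl2fastq, Cell Ranger 3.0.2 and Scanpy, while Cell Ranger 6.0.2 stands in the matrices of the OA, OA control and untreated groups, per the file headers; the genome build, and any strand setting, is not given in the sources used here. Gene and barcode lists deposited beside them hold identifiers and no measurement. Matrices list different numbers of genes: 58721 (ULA), 33538 (TGFB1, PA and their controls) and 36601 (OA, its control and untreated shaker). Fits of shaker libraries drew on the 32732 identifiers in every shaker matrix, and the ULA fit on the ULA gene list. The class comparison and the likeness between genes used the 32703 identifiers found in all matrices. CPM divides by all UMIs kept in a library, so ULA and shaker denominators rest on gene lists of different length.

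Cells entered with at least 500 genes and a mitochondrial share of at most 20%. No doublets were removed, and their removal with Scrublet was an alternative. Counts were summed per library, or per library and class with at least 50 cells, and tested with edgeR 4.0.16 (R 4.3.3, limma 3.58.1): TMM scaling, filterByExpr, quasi-likelihood test, Benjamini-Hochberg adjustment over all genes tested, and a shared spread over the shaker groups or over the ULA groups. The class comparison had the library as a block. SE is the log2 fold change divided by the root of F. DESeq2 1.42.0, other scalings and filters, and leaving out each library were alternatives; library totals and another class assignment were added after seeing the data. CPM, sums and figures were made with Python 3.11.15, numpy 2.4.6, pandas 2.3.3, scipy 1.17.1, scanpy 1.11.5 and matplotlib 3.10.9.

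The 8 genes and the lists were chosen with earlier results of these data known. All 8 were named in every comparison. From each list the 2 largest rises and 2 largest falls among called genes were named for OA and PA, and 3 like genes for each of CPT1A, PDK4, ANGPTL4 and CREB3L3; some genes that this rule picks are not reported here. Same-numbered replicates were checked for pairing, and the correlation of their deviations ran from -0.4403 to 0.0887, so the numbers were not treated as pairs. The OA comparison was tested on simulated data of 18526 genes, where 31 of 100 genes changed 2-fold and 98 of 100 changed 4-fold were recovered. Counts were drawn from mean levels of the shaker libraries with a spread common to all genes, and all other genes were left unchanged. In the OA data 43.3% of genes were called, so these recoveries do not measure the test under such broad change. Poisson intervals, also for a count of 0, cover counting error only.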

Additional observations from a re-analysis of the deposited data

Results flagged for a closer look

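The OA and PA effects, each against its own control, differed by the edgeR test of the difference in 5 genes, in whole libraries and in EPCAM-positive cells. In whole libraries the OA effect minus the PA effect was 2.90 for CPT1A, 1.49 for CPT2, 1.37 for HADHA, 1.78 for PDK4 and 3.94 for CREB3L3 (log2 scale). In EPCAM-positive cells it was 2.84 for CPT1A, 1.48 for CPT2, 1.23 for HADHA, 1.32 for PDK4 and 3.48 for CREB3L3. Experiment and agent cannot be told apart beyond the use of separate controls.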

How the results depend on the processing

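The rises of CPT1A, CREB3L3, PDK4, HADHA and CPT2 with OA kept their call under every alternative run, in whole libraries and in EPCAM-positive cells. Library totals were chosen after seeing the data.

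Genes called varied more. With PA in whole libraries they numbered 17 with library totals, 51 with DESeq2, 162 without a filter (2 of the 8 genes), 16 with only the compared groups and 4 with the replicate block. In EPCAM-positive cells PA gave 45, 126 (1 of the 8 genes) and 3 with DESeq2, without a filter and with the replicate block. In COL-positive cells PA gave 15 with DESeq2 and 81 without a filter (1 of the 8 genes each), 4 with 2 UMIs to enter the class, 4 with cells of both kinds assigned by more UMIs and 2 with the replicate block. OA control against untreated gave 255 with library totals and 701 with DESeq2 (1 of the 8 genes each), 523 without a filter, and 0 with only the compared groups and with the replicate block. For ULA age, 2 of the 8 genes were called without a filter, 0 with the stricter cell filter (at least 1000 genes and at most 10% mitochondrial counts) and 0 with the replicate block, which called 0 genes in all. The OA minus PA effect in EPCAM-positive cells had 3 of the 8 genes with library totals, and 3 with the replicate block (1617 genes); PDK4 and HADHA lost their calls under both (edgeR adjusted p 0.0636 and 0.0705 with the block). ACADVL with TGFB1 lost its call with the replicate block (edgeR adjusted p 0.0569). Replicate numbers were not treated as pairs. In shaker groups of 2 libraries, the other order gives the same correlation of deviations with its sign reversed. The lowest value was -0.4403, for untreated and OA control. Whether libraries share batches was not tested.

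Leaving out each library in turn, genes called ran from 5171 to 6570 for OA, 0 to 20 for PA, 2112 to 3388 for their difference, 1704 to 5554 for TGFB1 (1 to 4 of the 8 genes), 0 to 164 for OA control against untreated and 697 to 7162 for ULA age (0 to 4 of the 8 genes). In EPCAM-positive cells they ran from 3260 to 4469 for OA, 0 to 28 for PA and 992 to 2157 for the difference (3 to 4 of the 8 genes), and in COL-positive cells from 0 to 6 for PA.

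Signs changed as follows, and the cause was not tested. ULA age gave ACADVL 0.017 with the stricter cell filter, CPT1A -0.090 with the replicate block and PDK4 0.065 with library totals; ACADM with TGFB1 was -0.066 with library totals. CPT2 with PA in COL-positive cells was 0.087 with DESeq2 and 0.13 with cells of both kinds assigned, and CPT1A between the classes was -0.050 without doublets and -0.10 with library totals. Without 1 library, PA gave HADHA -0.034 to 0.39, CPT2 -0.40 to 0.041 and ACADM -0.0095 to 0.29 in whole libraries, HADHA -0.045 to 0.38, CREB3L3 -0.066 to 0.71 and ACADM -0.069 to 0.24 in EPCAM-positive cells, and HADHA -0.065 to 0.43, CPT2 -0.42 to 1.20, CREB3L3 -1.19 to 5.48 and PDK4 -7.23 to 1.47 in COL-positive cells. ACADM with TGFB1 ran from -0.19 to 0.51, ANGPTL4 between OA control and untreated from -0.12 to 2.12, and ANGPTL4 with OA in EPCAM-positive cells from -1.20 to 0.81. ULA age ran from -1.02 to 0.50 for PDK4, -1.17 to 0.73 for CPT1A, -0.43 to 0.10 for ACADVL and -0.38 to 1.69 for ANGPTL4, and CPT1A between the classes from -0.085 to 0.12.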

Other observations

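Cells with UMIs of both EPCAM and a collagen, which belonged to neither class, were 173 and 144 in the OA libraries and 1455 and 991 in the OA control. CREB3L3 had 85.6 and 108 CPM in them with OA and 10.2 and 12.1 CPM in the control. Of 103 genes whose promoter window held the DR1 letters, 46 were tested with OA in whole libraries, 17 were higher and 4 lower, where 21.7% of all genes were called higher and 21.6% lower. Their median log2 fold change was 0.06 beside -0.08 over all genes.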
